A study of Mus musculus with 18 samples.

Results

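The 10 genes of the daily clock described here were followed in adult mouse ventricle by chromatin immunoprecipitation with sequencing (ChIP-seq): the activators *Arntl*, *Npas2* and *Clock*, and the repressors *Cry1*, *Cry2*, *Per1*, *Per2*, *Per3*, *Ciart* and *Bhlhe40*. Their rows were found by gene symbol in the deposited table, which gave 24 promoter peaks for 10 genes among 101256 regions, called union peaks here, and 27153 promoter peaks that carry a symbol. The genes were chosen by their RNA polymerase II (Pol II) signal in earlier results from these same libraries, so their Pol II differences, and the counts of them past a threshold, are a description and not evidence about the list. CTCF libraries took no part in that choice, and CTCF differences were tested.

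The libraries came from hearts of 3 genotypes, WT, *Trdn-as* KO and *Mettl3* KO, with 2 Pol II, 2 CTCF and 1 IgG library per genotype. In *Trdn-as* KO mice a polyadenylation site in the first exon of the antisense RNA *Trdn-as* stops its transcription early, on a C57BL/6 background. *Mettl3* KO mice carry floxed *Mettl3* and a tamoxifen-inducible Cre driven by the alphaMHC promoter, so the m6A methyltransferase is lost in cardiomyocytes and not by design in the other cells of the ventricle. The methods give tamoxifen injections to these young adult mice and to their floxed controls without Cre. The labels call the controls of these libraries WT, and whether those hearts came from such floxed mice, and at what hour any heart was taken, were not given in the sources used here. Chromatin was made from 2 hearts, and nothing says that the replicates were separate preparations, so the spread between them may be technical.

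Across the series, the *Trdn-as* promoter peak had Pol II values of 530 and 595 in WT hearts but 140 and 100 with *Trdn-as* KO, and the *Mettl3* promoter gave no check of the floxed allele. The Pol II libraries held 1987649 to 4953706 reads in union peaks. The lowest was *Trdn-as* KO replicate 2, with 18.6% of its uniquely mapped reads in peaks against 35.5% to 42.6% in the other Pol II libraries. Summed Pol II over 6 peaks of the Y chromosome was 0 in both *Trdn-as* KO libraries and 223 to 326 in the others. In every comparison with *Trdn-as* KO, a difference in sex and the *Trdn-as* genotype therefore cannot be told apart. Values are the authors' normalized signal, a read number divided by a library factor, so the values of 1 peak can be compared between libraries of a target.

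In the clock of mammalian cells, ARNTL pairs with CLOCK or its relative NPAS2 and binds E-box DNA to drive transcription of the *Per* and *Cry* genes and of *Ciart* and *Bhlhe40*. The PER and CRY proteins return to the nucleus and block the activator pair, CIART and BHLHE40 repress it as well, and the cycle repeats daily. *Arntl*, *Npas2* and *Clock* respond in turn to the REV-ERB repressors and ROR activators through the RORE element. In tissues with a running clock *Arntl* and *Npas2* transcripts peak far from those of *Per1*, *Per2*, *Per3* and *Ciart*, and *Cry1* is known for a later peak than the *Per* genes.

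Promoter letters of the kinds that clock factors read are shown for the genes in whose windows they were found. Windows of 300 bases, from 250 before the start site, were found for 8 of the 10 genes in RefSeq (build GRCm38.p6), and *Per2* and *Bhlhe40* had none. *Arntl* and *Per1* had 2 windows each and *Clock* 3, for different start sites, and the others 1. An E-box (CACGTG, its own reverse complement) stood in the windows of *Cry1* and *Ciart* and in 1 of the 2 of *Per1*, and in 7.17% of all 32544 windows. A D-box (TTANGTAA on either strand), the element of the PAR bZIP factors, stood in that of *Per3* and in 2.29% of windows. A RORE core (ANTNGGTCA on either strand) stood in 1 of the 2 of *Arntl* and in 2.25%. *Npas2*, *Clock* and *Cry2* had none of the 3 motifs in any window, which says only that these letters are not in those windows. Positions count from the start site, with -1 the base just before it. Capitals mark the motif, and each sequence is written 5′ to 3′ on the strand of its gene.
*Arntl* RORE, chr7:113207529-113207557, plus strand, first base of the motif at 29: gaaggcagaaAGTAGGTCAgggacggagg
*Cry1* E-box, chr10:85185082-85185141, minus strand, first base of the motif at -60: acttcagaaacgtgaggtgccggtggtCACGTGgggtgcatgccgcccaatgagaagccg
*Per1* E-box, chr11:69098756-69098815, plus strand, first base of the motif at -166: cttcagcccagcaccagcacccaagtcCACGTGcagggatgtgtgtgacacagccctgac
*Ciart* E-box, chr3:95882312-95882371, minus strand, first base of the motif at -116: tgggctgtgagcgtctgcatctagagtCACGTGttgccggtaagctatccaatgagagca
*Ciart* E-box pair, chr3:95882254-95882313, minus strand, first bases of the motifs at -58 and -44: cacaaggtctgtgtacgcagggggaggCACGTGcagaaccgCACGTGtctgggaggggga
*Per3* D-box, chr4:151044836-151044897, minus strand, first base of the motif at -205: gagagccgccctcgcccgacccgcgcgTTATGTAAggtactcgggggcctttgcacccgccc
*Per3* D-box, chr4:151044789-151044850, minus strand, first base of the motif at -158: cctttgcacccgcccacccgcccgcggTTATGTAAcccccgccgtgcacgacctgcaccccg

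Pol II at the main promoter peaks (for each gene the promoter peak with the most Pol II over the 6 libraries) separated the activators from the repressors in *Mettl3* KO hearts. All 3 activators had more Pol II in both *Mettl3* KO libraries than in either WT library, and all 7 repressors had less. The gap was widest at *Npas2* and *Arntl*, and narrowest at *Bhlhe40* and *Cry2*. At an adjusted p below 0.05 from limma, fitted over 52655 peaks, 2 of the 10 main peaks were higher (*Arntl* and *Npas2*) and 4 lower (*Cry1*, *Per1*, *Per2* and *Ciart*), where 0.712% of all tested peaks were higher and 0.482% lower. Libraries of the groups did not overlap, higher in *Mettl3* KO, at 3 of the 10 and at 31.2% of all peaks, and did not overlap, lower, at 7 of the 10 and at 19.5% of all peaks. Because these genes were picked on this contrast, nothing is read from those counts. With uniquely mapped reads as library size 0 of the 10 passed, and without either *Mettl3* KO library 0 passed; without WT replicate 1 or 2 there were 2 and 1.

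**Figure D1:**
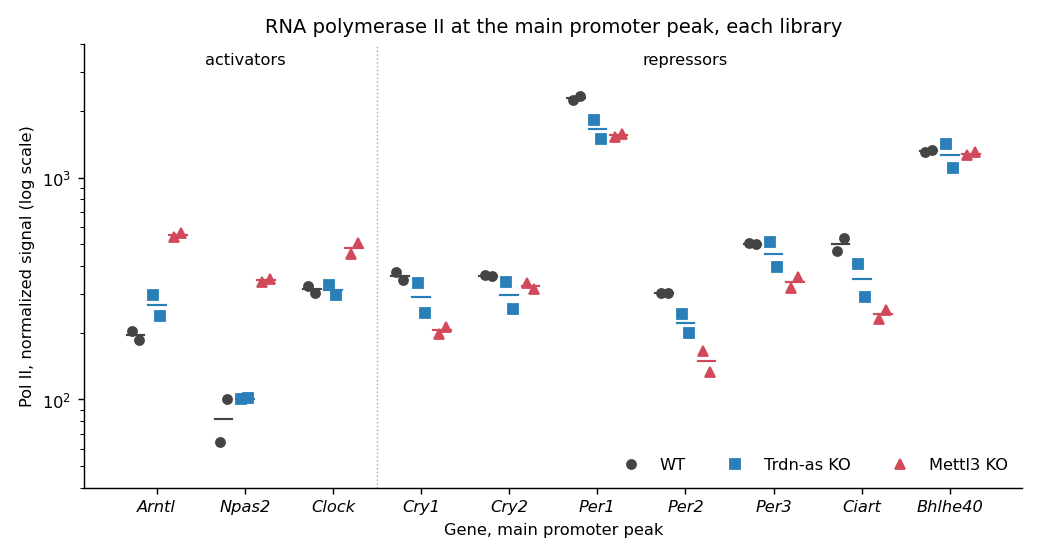
Pol II signal (authors' normalized values, log axis) at the main promoter peak of each gene, with 1 point per library, 2 per genotype, and a bar at their mean. *Arntl* and *Npas2* reach their highest values in *Mettl3* KO (540 and 563, and 340 and 349), *Per2* and *Ciart* their lowest (165 and 133, and 231 and 253), and *Bhlhe40* hardly differs.

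*Arntl* (ENSMUSG00000055116), the partner that every activator pair shares, had 1 promoter peak, on chromosome 7 from 112805754 to 112807495 in GRCm39, centred 47 nt upstream of the gene start. Its Pol II values were 204 and 185 in WT hearts, against 296 and 238 with *Trdn-as* KO and 540 and 563 with *Mettl3* KO. The 3 genotypes did not overlap and stood in that order. The mean in *Mettl3* KO was 2.84 times the WT mean, a log2 fold change of 1.50 (SE 0.18, on the log2(value + 1) scale), and in *Trdn-as* KO 1.37 times, 0.45 (SE 0.18). Scaled to uniquely mapped reads the latter turned to -0.15, and that of *Npas2* in *Trdn-as* KO from 0.33 to -0.26.

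*Npas2* (ENSMUSG00000026077), which can take the place of CLOCK, had its main peak on chromosome 1 from 39231061 to 39233649. Pol II there was 64 and 100 in WT hearts, against 100 and 102 with *Trdn-as* KO and 340 and 349 with *Mettl3* KO. WT and *Trdn-as* KO met at 100, and *Mettl3* KO stood clear of both, at 4.20 times the WT mean and 3.41 times the *Trdn-as* KO mean. The log2 fold change against WT was 2.09 (SE 0.23), the largest among the 10 genes. Per kb of peak, *Npas2* carried the least WT Pol II of the 10, 31.7 per kb against 265.0 at *Per1*, and in the *Mettl3* KO hearts it reached 133. Its WT signal was also the nearest to background, at 2.99 times the IgG library in RPM, reads scaled to the uniquely mapped total of the library, where the other 9 genes stood between 10.3 and 18.8 times. In *Mettl3* KO it stood at 9.79 times.

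*Clock* (ENSMUSG00000029238), whose transcript is known to vary little over the day in many tissues, had 1 promoter peak, on chromosome 5 from 76451440 to 76453227. The values were 325 and 303 in WT hearts, against 329 and 295 with *Trdn-as* KO and 453 and 507 with *Mettl3* KO. WT and *Trdn-as* KO overlapped, and *Mettl3* KO lay above both. The log2 difference was 0.61 (SE 0.17) against WT and 0.62 (SE 0.17) against *Trdn-as* KO.

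Markers of fibroblasts, a cell type that the alphaMHC promoter does not target, were higher in the same libraries as the activators. Summed Pol II at the promoters of 6 fibroblast markers (*Col1a1*, *Col1a2*, *Col3a1*, *Pdgfra*, *Dcn* and *Lum*) was 671 and 716 in WT hearts, against 1017 and 691 with *Trdn-as* KO and 1481 and 1485 with *Mettl3* KO. At the threshold 4 of the 6 were higher in *Mettl3* KO than in WT, where 0.712% of all tested peaks were higher. None of the 6 was at 0 in any library. Sums were 327 to 411 in WT and 541 to 576 in *Mettl3* KO for 4 mural cell markers, 1109 to 1173 and 816 to 826 for 4 adipocyte markers, 765 to 828 and 771 to 781 for 4 endothelial markers, 242 to 256 and 216 to 249 for 5 macrophage markers, and 29440 to 31325 in WT and 29954 to 30349 in *Mettl3* KO for 8 cardiomyocyte markers. The adipocyte sum thus lay lower in *Mettl3* KO without overlap, as the repressors did, with *Ucp1* at 0 in at least 1 library. Of the 4 mural markers 1 was also higher in *Mettl3* KO than in WT at the threshold. In that comparison 0 of the tested adipocyte, endothelial, macrophage and cardiomyocyte markers passed. The part of these cells in the activator and repressor signals was not tested, and in whole ventricle more cells of a type and more Pol II per cell cannot be told apart.

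*Per2* and *Ciart* had the largest differences between *Mettl3* KO and WT among the 7 repressors. *Per2* (ENSMUSG00000055866) encodes a scaffold of the repressor complex, and its main peak lay on chromosome 1 from 91385969 to 91387834. Pol II was 302 and 302 in WT hearts, against 242 and 200 with *Trdn-as* KO and 165 and 133 with *Mettl3* KO, so that the 3 genotypes did not overlap. The *Mettl3* KO mean was 0.49 of the WT mean, a log2 fold change of -1.02 (SE 0.20), and the *Trdn-as* KO difference was -0.46 (SE 0.20). *Ciart* (ENSMUSG00000038550), a repressor that binds the activator pair, had its main peak on chromosome 3 from 95788518 to 95790997, with 467 and 536 in WT hearts, against 407 and 291 with *Trdn-as* KO and 231 and 253 with *Mettl3* KO. The order was the same, without overlap, and the log2 fold changes were -1.05 (SE 0.18) in *Mettl3* KO and -0.54 (SE 0.18) in *Trdn-as* KO.

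*Per1* (ENSMUSG00000020893), the *Per* gene best known for acute induction by hormones and other stimuli, differed in another order. Its peak on chromosome 11 from 68982810 to 68991417 was 8608 nt long and ran from upstream of the gene start into the gene. Pol II was 2240 and 2322 in WT hearts, against 1812 and 1494 with *Trdn-as* KO and 1531 and 1572 with *Mettl3* KO. Both knockouts lay below WT and overlapped each other. The log2 fold changes from WT were -0.56 (SE 0.11) in *Mettl3* KO and -0.47 (SE 0.11) in *Trdn-as* KO, and the knockouts differed by -0.08 (SE 0.11). *Per3* (ENSMUSG00000028957), the *Per* gene whose loss leaves the rhythm largely intact, had its main peak on chromosome 4 from 151127763 to 151129825. The values were 507 and 500 in WT hearts, against 510 and 397 with *Trdn-as* KO and 317 and 357 with *Mettl3* KO. Only *Mettl3* KO lay apart from WT, at -0.58 (SE 0.17).

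*Cry1* and *Cry2*, the cryptochromes that supply most of the repression, differed in size of change, although the difference between them was not tested. *Cry1* (ENSMUSG00000020038, chromosome 10 from 85019115 to 85022027) had 374 and 345 in WT hearts, against 335 and 246 with *Trdn-as* KO and 197 and 213 with *Mettl3* KO. The genotypes stood in that order without overlap, and the log2 difference of *Mettl3* KO from WT was -0.81 (SE 0.19). The sign at *Cry1* was that of the *Per* genes and not that of *Arntl* and *Npas2*. *Cry2* (ENSMUSG00000068742, chromosome 2 from 92263800 to 92265169) had 364 and 359 in WT hearts, against 339 and 255 with *Trdn-as* KO and 334 and 314 with *Mettl3* KO, with a log2 fold change of -0.16 (SE 0.18) in *Mettl3* KO. The knockouts overlapped, and both lay below WT.

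*Bhlhe40* (ENSMUSG00000030103), which encodes an E-box repressor that many signals besides the clock induce, had the smallest difference in *Mettl3* KO. Its main peak on chromosome 6 from 108634855 to 108641204 had 1306 and 1329 in WT hearts, against 1421 and 1101 with *Trdn-as* KO and 1263 and 1298 with *Mettl3* KO. Both *Mettl3* KO values were narrowly under the WT pair, and the WT range lay inside the *Trdn-as* KO range. The log2 fold changes were -0.04 (SE 0.13) and -0.07 (SE 0.13).

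In *Trdn-as* KO hearts *Arntl* had more Pol II than in either WT library, and 5 repressors had less. Of the 10 main peaks, 0 were higher than WT and 1, *Per1*, was lower at the threshold from limma, where 0.0798% of all tested peaks were higher and 0.224% lower. At an unadjusted p below 0.05 there were 1 higher and 3 lower, as were 7.70% of all tested peaks in either direction. *Per1* lost the call in 11 of 15 alternatives, among them those that left out any of the WT or *Mettl3* KO libraries, and without *Trdn-as* KO replicate 1 there were 5 lower. Libraries did not overlap at 1 higher, *Arntl*, and at 5 lower, *Cry1*, *Cry2*, *Per1*, *Per2* and *Ciart*, against 12.9% and 19.1% of all peaks. The median log2 fold change was 0.33 over the 3 activators and -0.32 over the 7 repressors, with -0.07 over all tested peaks. In *Mettl3* KO these medians were 1.50, -0.58 and 0.08. The 0.33 was the value of *Npas2*, which ran from -0.26 to 0.65 over the alternatives. Scaled to uniquely mapped reads, *Arntl*, *Npas2* and *Clock* stood at -0.15, -0.26 and -0.61 in *Trdn-as* KO, with -0.65 as the median of all tested peaks.

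**Figure D2:**
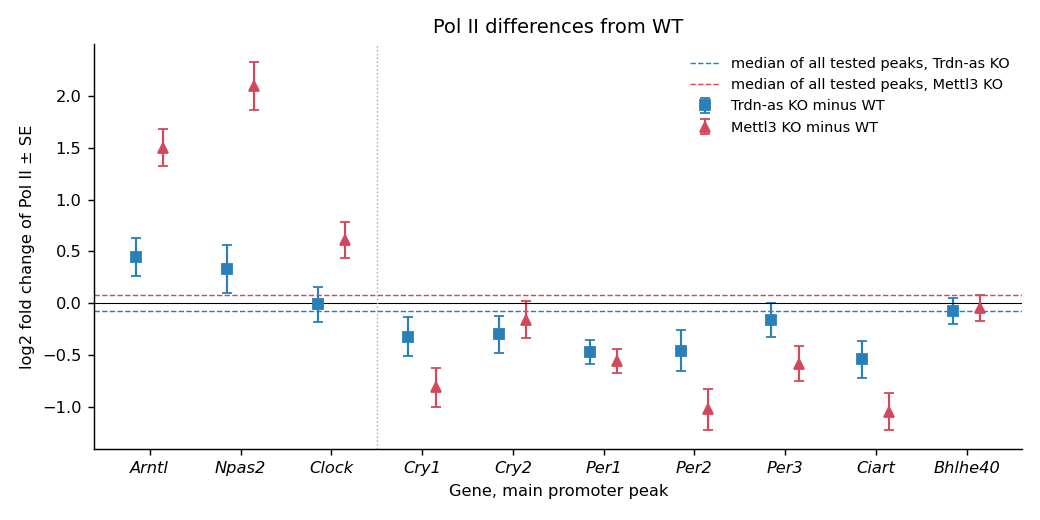
Log2 fold change of Pol II from WT at the main promoter peak of each gene, for *Trdn-as* KO and *Mettl3* KO, with the limma SE as bars; dashed lines mark the median of all tested peaks. Both comparisons use the same 2 WT libraries. The points for *Mettl3* KO run from 2.09 at *Npas2* to -1.05 at *Ciart*, and those for *Trdn-as* KO from 0.45 at *Arntl* to -0.54 at *Ciart*.

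The comparisons above share the WT libraries. Set directly against *Trdn-as* KO, *Mettl3* KO had 3 main peaks higher, the 3 activators, and 0 lower at the threshold from limma, where 1.15% of all peaks were higher and 0.355% lower. At an unadjusted p below 0.05 there were 3 higher and 4 lower, as were 17.9% of all tested peaks in either direction. The libraries did not overlap at 3 higher and 4 lower, *Cry1*, *Per2*, *Per3* and *Ciart*, against 29.9% and 13.9% of all peaks. *Cry2*, *Per1* and *Bhlhe40* overlapped. The counts of activators and of repressors here depended on the scaling. Scaled to uniquely mapped reads, *Npas2* (2.22) alone of the 3 activators passed, and *Arntl* (1.51) and *Clock* (1.08) did not. Rescaled within the Pol II libraries by median ratios, 5 repressors were lower at the threshold, *Cry1* (-0.66), *Per1* (-0.26), *Per2* (-0.74), *Per3* (-0.59) and *Ciart* (-0.68), and scaled to uniquely mapped reads these 5 stood at -0.03, 0.38, -0.11, 0.04 and -0.05, with 0 past it.

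Ratios of Pol II at 2 promoters of the same library do not depend on how that library was scaled. *Arntl* over *Per2* was 0.676 and 0.613 in WT hearts, against 1.22 and 1.19 with *Trdn-as* KO and 3.27 and 4.23 with *Mettl3* KO. *Arntl* over *Cry1* was 0.545 and 0.536 in WT hearts, against 0.884 and 0.967 with *Trdn-as* KO and 2.74 and 2.64 with *Mettl3* KO. The replicates of *Trdn-as* KO agreed in these ratios although their depth in peaks differed. For *Arntl*, both *Trdn-as* KO libraries lay above both WT libraries over each of 7 repressors, for *Clock* over 6 of 7, with *Bhlhe40* the exception, and for *Npas2* over 5 of 7, with *Per3* and *Bhlhe40* the exceptions. Both *Mettl3* KO libraries lay above both WT and both *Trdn-as* KO libraries in all 21 ratios. These ratios follow from the values that chose the genes and were added after those values had been seen. The 21 ratios reuse the values of 10 genes and are not separate observations. Against WT the *Mettl3* KO result was fixed, since no activator or repressor overlapped WT in the values above.

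The other 14 promoter peaks of the 10 genes carried little Pol II, and 11 of them reached a value of 10 in 2 Pol II libraries and were tested. *Cry2* had 1 of mean Pol II over 50, on chromosome 2 from 92260920 to 92262249 inside the gene, with 93 and 98 in WT hearts, against 111 and 94 with *Trdn-as* KO and 115 and 155 with *Mettl3* KO. There the *Mettl3* KO libraries were the highest, unlike at the *Cry2* start, and the log2 fold change of 0.48 (SE 0.24) did not pass. A weak peak beyond the end of *Ciart* (chromosome 3, 95784830 to 95785165) had 19 and 27 in WT hearts, against 9 and 16 with *Trdn-as* KO and 6 and 2 with *Mettl3* KO, and at -2.37 (SE 0.64) it passed the threshold in the same direction as the *Ciart* start. IgG moved with Pol II at this peak, from 13 in WT hearts to 0 in each knockout, and its part in the difference was not tested. A peak upstream of *Cry2* (chromosome 2, 92268005 to 92269189) was mainly a CTCF site, with CTCF values of 101 to 130.

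Beyond the promoter peaks, 45 further union peaks overlapped the genes, of which 24 were tested for Pol II. All but 1 at *Bhlhe40* and 1 at *Per1*, which straddle the gene end with their centre past it, lay within the gene. *Arntl* had 5 tested and all 5 had positive log2 differences in *Mettl3* KO against WT, from 0.57 to 1.40. The peak at 1.40 (SE 1.30) had 1 and 5 in WT hearts, against 10 and 0 with *Trdn-as* KO and 11 and 6 with *Mettl3* KO. It reached a value of 10 in 2 libraries only with the help of *Mettl3* KO. *Npas2* had 6 tested and all 6 were positive, from 0.34 to 1.46. Those 13265 nt (8 and 5 in WT hearts, 13 and 19 with *Mettl3* KO) and 124405 nt (14 and 8, 21 and 10) from its start were tested only through *Mettl3* KO values. The *Npas2* peak at 137588 nt, with 14 and 6 in WT hearts and 8 and 3 with *Mettl3* KO, was not tested. The rule for testing thus partly set these signs. Of the 11 weak peaks tested at *Arntl* and *Npas2* 0 passed against WT in limma. Of them 3 had an unadjusted p below 0.05, all higher, as did 15.5% of all tested Pol II peaks in either direction. Positive differences were not particular to the activators, since 2 of 2 at *Cry1*, 3 of 3 at *Cry2* and 1 of 4 at *Per2* were positive too. In *Npas2*, the peak 87014 nt from the start had 31 and 46 in WT hearts, against 24 and 22 with *Trdn-as* KO and 56 and 56 with *Mettl3* KO, and passed between the knockouts (1.25, SE 0.35). The deposited annotation places this peak 4181 nt from a start other than that of *Npas2*, without a gene symbol. The IgG library moved with Pol II there, from 20 in WT hearts and 7 with *Trdn-as* KO to 46 with *Mettl3* KO, and its part in the difference was not tested. *Cry2* had 3 tested. The strongest, 10385 nt from the start, had 236 and 263 in WT hearts, against 330 and 275 with *Trdn-as* KO and 301 and 238 with *Mettl3* KO, and the next, 5962 nt from the start, 63 and 59, 93 and 47, and 87 and 72. *Mettl3* KO overlapped WT at the first and lay above it at the second, without passing. At *Per1* both tested peaks, the one at the gene end included, were negative, and *Clock* and *Ciart* had none tested.

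At *Cry1* a peak on chromosome 10 from 84997530 to 84998028, 23149 nt into the gene, had Pol II of 12 and 10 in WT hearts, against 9 and 14 with *Trdn-as* KO and 48 and 43 with *Mettl3* KO. WT and *Trdn-as* KO overlapped, and *Mettl3* KO stood above both. The log2 fold change of 1.96 (SE 0.47) passed the threshold, opposite in sign to the *Cry1* start at -0.81. IgG at this peak was also highest in *Mettl3* KO, at 28 against 5 in WT hearts and 7 with *Trdn-as* KO, and its part in the Pol II difference was not tested. CTCF there was 12 to 22, with no such gap. This *Cry1* peak was the 1 tested peak of these 24 that passed in *Mettl3* KO against WT, where 0.712% of all tested peaks were higher and 0.482% lower. Another at *Cry1*, 30758 nt into the gene, had 10 and 8 in WT hearts, against 10 and 10 with *Mettl3* KO. A further *Per2* peak, 22779 nt from the start, had 71 and 70, 49 and 55, and 59 and 62 in the order WT, *Trdn-as* KO and *Mettl3* KO. At *Bhlhe40*, the peak that straddles the gene end, centred downstream of it at 7382 nt from the start, had 353 and 304 in WT hearts, against 273 and 193 with *Trdn-as* KO and 258 and 219 with *Mettl3* KO, and at *Per2* a peak 13066 nt from the start had 45 and 45 in WT hearts, against 42 and 51 with *Trdn-as* KO and 61 and 90 with *Mettl3* KO. None of these passed the threshold. The log2 difference in *Mettl3* KO was -0.46 (SE 0.19) at the *Bhlhe40* peak, where the start gave -0.04, and 0.71 (SE 0.31) at the last *Per2* peak, where the start gave -1.02.

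**Figure D3:**
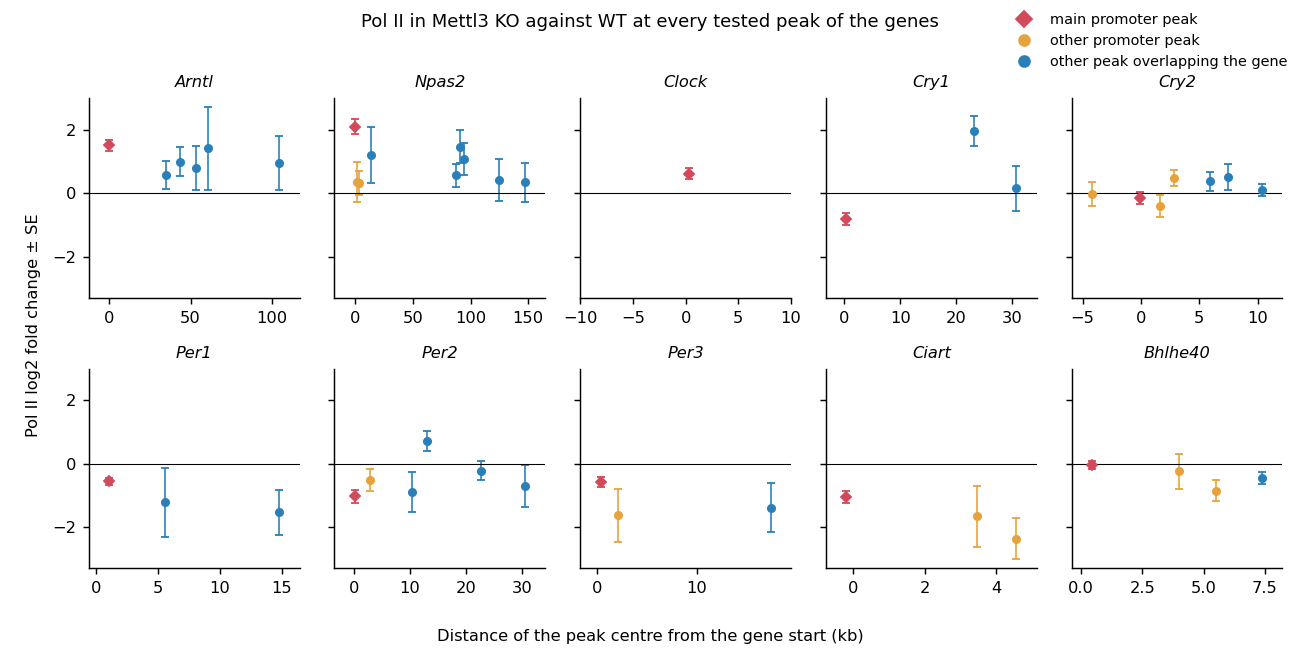
Log2 fold change of Pol II in *Mettl3* KO against WT (limma SE as bars) at every tested peak of the 10 genes, by distance of the peak centre from the gene start in kb. Tested peaks along *Arntl* and *Npas2* all lie above 0, though some of them were tested only through *Mettl3* KO values. The *Cry1* peak near 23 kb (1.96) lies on the other side of 0 from the *Cry1* start (-0.81), at a peak where IgG was highest in *Mettl3* KO too (28).

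CTCF, an architectural DNA-binding protein, was measured in separate libraries, and its signal at the same starts gave a readout that the choice of genes had not used. At the main peaks 0 of 10 passed the threshold from limma in *Mettl3* KO against WT, where 0.185% of all 60649 tested peaks passed. There 5 of the 10 had an unadjusted p below 0.05, 2 higher and 3 lower, as did 15.7% of all tested peaks in either direction. Libraries did not overlap at 2 higher and 6 lower, against 15.8% and 27.7% of all peaks. The 2 were *Npas2* and *Arntl*.

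*Npas2* had CTCF values of 69 and 64 in WT hearts, against 81 and 73 with *Trdn-as* KO and 97 and 97 with *Mettl3* KO, a log2 fold change of 0.54 (SE 0.11, adjusted p = 0.055 from limma) against WT. *Arntl* had 89 and 77, 87 and 83, and 107 and 106 in the same order, 0.36 (SE 0.11, adjusted p = 0.13 from limma). *Per3* had 98 and 93, 90 and 94, and 66 and 70, -0.48 (SE 0.11, adjusted p = 0.063 from limma). For these genes *Mettl3* KO lay apart from both other genotypes, *Npas2* and *Arntl* above and *Per3* below. *Ciart* (162 and 157 in WT hearts, 132 and 128 with *Mettl3* KO) and *Per2* (167 and 135, 124 and 121) both differed by -0.29, with adjusted p of 0.12 and 0.18 from limma. *Clock*, *Per1* and *Bhlhe40* lay within 0.06 of 0. Rescaled within the CTCF libraries, *Npas2* (0.60, adjusted p = 0.0069), *Arntl* (0.42, adjusted p = 0.032) and *Per3* (-0.42, adjusted p = 0.033) passed in limma. Over all alternatives the adjusted p from limma reached 0.71 for each.

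At *Clock*, *Per1* and *Bhlhe40* the CTCF difference between *Mettl3* KO and WT was near 0, and turned positive when the CTCF libraries were rescaled. The methods describe sheared chromatin that was pooled and then added to beads with each antibody, so the Pol II and CTCF libraries of a genotype may share a preparation and are then not separate samples. CTCF stood 3.36 to 11.6 times above IgG at these starts in WT, highest at *Cry1*. Whether it is bound there or follows open chromatin was not tested.

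**Figure D4:**
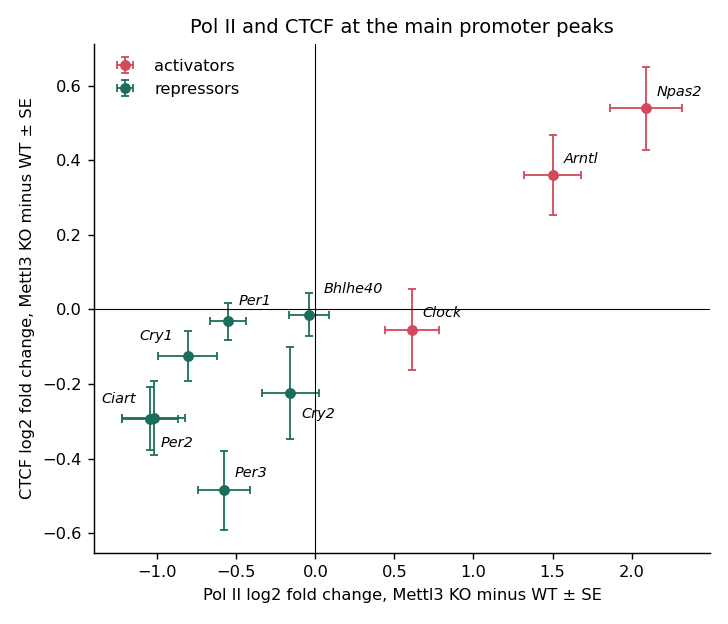
Log2 fold change in *Mettl3* KO against WT of Pol II (horizontal) and CTCF (vertical) at the main promoter peak of each gene, with limma SE as bars. *Npas2* (2.09 and 0.54) and *Arntl* (1.50 and 0.36) lie at upper right, and *Per2*, *Ciart* and *Per3* at lower left.

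In *Trdn-as* KO against WT 0 of the 10 main peaks passed for CTCF, 0 had an unadjusted p below 0.05 and the lowest adjusted p from limma was 0.51, at *Ciart* (-0.17, SE 0.08), where 0.587% of all peaks passed. In *Mettl3* KO against *Trdn-as* KO 0 passed, 4 had an unadjusted p below 0.05, as did 18.8% of all tested peaks, and *Per3* came nearest (-0.43, SE 0.11, adjusted p = 0.052 from limma), where 1.37% of all peaks passed. Outside the main peaks, 0 of 33 tested CTCF rows of these genes passed in limma in any of the 3 comparisons, with 6, 2 and 6 at an unadjusted p below 0.05 in *Mettl3* KO against WT, *Trdn-as* KO against WT and *Mettl3* KO against *Trdn-as* KO. Over all tested CTCF peaks the shares at that p were 15.7%, 10.2% and 18.8%, so these counts lay near the background.

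Other genes of the clock, a list of 18, all had a promoter peak. In *Mettl3* KO against WT, Pol II was lower at the threshold at 2, *Dbp* and *Hlf*, where 0.482% of all tested peaks were lower. *Dbp*, a PAR bZIP factor that reads the D-box, had 3291 and 3501 in WT hearts, against 3267 and 2482 with *Trdn-as* KO and 1710 and 1650 with *Mettl3* KO (-1.01, SE 0.11). *Hlf*, of the same family, had 226 and 228, 205 and 143, and 88 and 104 (-1.24, SE 0.22). The *Mettl3* KO libraries lay below both other genotypes at each of them. *Nr1d1*, the REV-ERB gene that represses through the RORE, named after its values were seen, had 2958 and 3073, 3011 and 2567, and 2666 and 2594, a log2 difference of -0.20 (SE 0.10) that did not pass. In *Trdn-as* KO against WT 0 of the 18 passed in limma, with a lowest adjusted p of 0.29 and 2 at an unadjusted p below 0.05, both lower, as were 7.70% of all tested peaks in either direction. In *Mettl3* KO against WT 7 of the 18 had such a p, 4 higher and 3 lower, where 15.5% of all tested peaks did. CTCF at *Dbp* was 297 and 296 in WT hearts, against 312 and 314 with *Trdn-as* KO and 227 and 240 with *Mettl3* KO. It was lower in *Mettl3* KO than in WT (-0.34, SE 0.06, adjusted p = 0.040 from limma), where 0.185% of all tested CTCF peaks passed in either direction.

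Among 9951 genes with a mean promoter Pol II of at least 50, those whose 6 Pol II libraries ran most like *Arntl*, by the root mean square difference of log2 values from the WT mean, were *Adamtsl2* (0.13), *Has2* (0.15) and *Col3a1* (0.15). *Col3a1*, a fibrillar collagen gene and 1 of the 6 fibroblast markers above, had 78 and 96 in WT hearts, against 131 and 92 with *Trdn-as* KO and 230 and 246 with *Mettl3* KO. *Leo1* (0.21) came nearest to *Npas2*, followed by *Adamtsl2* (0.36) and *Fibin* (0.38). Nearest to *Cry1* were *Shld1* (0.09), *Myh7* (0.095) and *Gstt2* (0.097), and nearest to *Per1* were *Cav1* (0.083), *Tcap* (0.084) and *Cacna1c* (0.091).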

How the data were processed

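The deposited table holds union peaks in GRCm39 with 1 score column per library. Per the methods, the authors trimmed reads with Trimmomatic 0.39, aligned them with STAR 2.7.11b, removed duplicates with Picard 3.1.1 and also spliced and multi-mapping reads, called peaks with MACS, merged them, counted reads with featureCounts and normalized with DESeq2 1.36.0. A promoter peak is annotated to the nearest gene start within 5000 nt. The deposited scores are normalized reads rounded to whole numbers, not counts. The value of 1 read per library was estimated from their spacing, and gave read numbers and RPM. CTCF read numbers are estimates, since 1 read is worth less than 1 there.

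Genotypes were compared with limma 3.58.1 (R 4.3.3) on log2(value + 1), with a variance trend, in a model over the 6 libraries of a target, for peaks with at least 10 in 2 or more libraries, adjusted by Benjamini-Hochberg over all of them (threshold 0.05). Fold changes understate those of low peaks. On simulated *Mettl3* KO against WT values, limma recovered 66% of Pol II peaks changed by 1 on the log2 scale and 98% of those changed by 2, with 6 false calls in 52655, and 100% of CTCF peaks at both sizes, with 2 in 60649. The changed peaks were drawn only from those with a mean signal above 50, and the noise was independent between libraries. Recovery at weaker peaks, and false calls from effects shared by a whole library, were therefore not measured. The 10 genes, the 18 other clock genes and the marker lists were chosen with earlier results of these data known. The separate result of 1 of the 18 is not reported here. The rule named every promoter peak of the 10 genes, other peaks with mean Pol II of at least 50, mean CTCF of at least 100 or a call, and the 3 most alike genes for 4 of them. A count of 0 allows up to 3 reads, and intervals of this kind cover counting error only. Promoter letters came from RefSeq tables of GRCm38.p6 and were not joined to the GRCm39 peaks by position. The input libraries were not used here. Python 3.11.15, pandas 2.3.3, numpy 2.4.6 and matplotlib 3.10.9 were used for the remaining steps.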

Additional observations from a re-analysis of the deposited data

How the results depend on the processing

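At an adjusted p below 0.05 from limma, 6 of the 10 main peaks passed for Pol II in *Mettl3* KO against WT, and 8 did when rescaled within the Pol II libraries, with a pseudocount of 10, with only the 2 genotypes or with promoter peaks summed per gene, the same 6 among them. With uniquely mapped reads as library size, without the filter on low values and without the variance trend, 0 passed, and the cause was not tested. *Trdn-as* KO against WT, with 1 in the model as given, had 3 when rescaled within the Pol II libraries, and 0 with uniquely mapped reads, without the filter, with only the 2 genotypes, without the variance trend, at an adjusted p below 0.01 and with summed peaks. *Mettl3* KO against *Trdn-as* KO, with 3, had 8 when rescaled (3 higher and 5 lower), 1 with uniquely mapped reads, 1 with only the 2 genotypes, and 0 without the filter and without the trend. Leaving out 1 library gave 0 to 8, 0 to 5 and 0 to 5 calls in these 3 comparisons. In *Mettl3* KO against WT, 2 were left without WT replicate 1, 1 without WT replicate 2, and 0 without either *Mettl3* KO library. *Npas2* passed without either WT library and *Arntl* without WT replicate 1. The log2 differences moved less than the calls, at *Arntl* from 1.43 to 1.57, at *Npas2* from 1.77 to 2.41 and at *Ciart* from -1.15 to -0.95. The direction at each peak called in *Mettl3* KO against WT was the same in all of these settings, which the choice of genes makes likely.

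Uniquely mapped reads moved the median log2 difference of all Pol II peaks from -0.07 to -0.65 in *Trdn-as* KO against WT and from 0.08 to -0.06 in *Mettl3* KO against WT. Less that median, *Arntl* stood at 0.50 and *Per2* at -0.40 in the first, and at 1.42 and -1.10 in the second.

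For CTCF, 0 of the 10 passed in each comparison. In *Mettl3* KO against WT 3 passed when rescaled within the CTCF libraries, 1 with a pseudocount of 10 and 2 with summed peaks, and in *Mettl3* KO against *Trdn-as* KO 2 passed when rescaled and 1 with a pseudocount of 10. CTCF differences near 0 changed sign. Scaled to uniquely mapped reads, the sign turned at *Arntl* (-0.038), *Cry1* (-0.068), *Per1* (-0.045), *Bhlhe40* (-0.075) in *Trdn-as* KO against WT, and at *Cry2* (0.0062), *Per1* (0.022), *Bhlhe40* (0.070) in *Mettl3* KO against *Trdn-as* KO. Rescaled within the CTCF libraries, the sign turned at *Clock* (0.0061), *Per1* (0.029), *Bhlhe40* (0.047) in *Mettl3* KO against WT, and at *Cry1* (-0.028), *Per1* (-0.0059), *Bhlhe40* (-0.036) in *Trdn-as* KO against WT, and at *Cry2* (0.019), *Per1* (0.035), *Bhlhe40* (0.083) in *Mettl3* KO against *Trdn-as* KO. With promoter peaks summed per gene, the sign turned at *Cry2* (0.048), *Bhlhe40* (-0.0083) in *Trdn-as* KO against WT. Without 1 library it turned at *Clock* (-0.14 to 0.029, *Mettl3* KO against WT), *Bhlhe40* (-0.073 to 0.045, *Mettl3* KO against WT), *Arntl* (-0.066 to 0.14, *Trdn-as* KO against WT), *Per2* (-0.23 to 0.072, *Trdn-as* KO against WT), *Bhlhe40* (-0.058 to 0.060, *Trdn-as* KO against WT), *Bhlhe40* (-0.060 to 0.030, *Mettl3* KO against *Trdn-as* KO). *Cry1* fell to 0 without 1 library (0 to 0.017, *Trdn-as* KO against WT). None of these passed the threshold in either sign. Pol II stood above IgG at all 10 main peaks in each of 3 genotypes, by ratio and by subtraction.

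The replicate numbers do not pair the libraries, with correlations of deviations from -0.0096 to -2e-04 for Pol II and -0.24 to 0.0059 for CTCF. With a replicate block 6 main peaks passed in *Mettl3* KO against WT, 0 in *Trdn-as* KO against WT and 2 in *Mettl3* KO against *Trdn-as* KO for Pol II, and 0 for CTCF throughout. Crossed pairing for CTCF in *Trdn-as* KO against WT, chosen after seeing the data, gave 312 higher and 191 lower peaks of all tested and 0 of the 10.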
